A study of Mus musculus with 2 samples.

Results

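Hemoglobin and its red cell partners were measured in hippocampal tissue through 6 genes, chosen by name from 55536 annotated mouse genes: the alpha-globins Hba-a1 and Hba-a2, the beta-globins Hbb-bs and Hbb-bt, the heme enzyme Alas2 and the membrane transporter Slc4a1. The samples were 2 total RNA libraries, numbered biological replicates 1 and 2, from female B6CASTF1/J mice aged 36 days. These animals are the first-generation cross of the C57BL/6J and CAST/EiJ strains. Each library was made from 300 ng of RNA with external spike-in RNAs (the ERCC mix) added. There was 1 group and no treatment, so each value is a level with its spread between 2 samples and no test was made between conditions. Each library has its own biosample in the labels but both carry 1 donor identifier, so separate mice are not stated, and the spread may be partly technical. Whether blood was flushed from the tissue is not given in the sources used here.

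Hemoglobin carries oxygen in red cells and is built from pairs of alpha and beta chains, each holding a heme group. Mice carry neighbouring copies of the adult alpha-globin gene and neighbouring copies of the adult beta-globin gene, and in the C57BL/6 strain the beta copies are Hbb-bs and Hbb-bt. Alas2 is the erythroid form of the first and rate-limiting enzyme of heme synthesis. Slc4a1 is band 3, the chloride and bicarbonate exchanger that also anchors the red cell's membrane skeleton. Red cells lose their nucleus as they mature, while the youngest of them, reticulocytes, still hold globin RNA. In brain, single neurons and glia have also been described to express globin genes. In RNA of a whole tissue, fewer cells of a type and less RNA per cell cannot be told apart.

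Globin RNA was plainly present, Alas2 was low but measured in both libraries, and Slc4a1 rested on a handful of reads. Of the 6 genes, 5 reached 1 TPM (a level that corrects counts for the length of the RNA and the depth of the library) in both libraries, the level called detected here. Across all annotated genes 26.3% did so, and across protein-coding genes 57.6%. The levels below come from the authors' first quantification unless the second is named. Libraries held 32443497 and 30125183 expected counts in replicates 1 and 2, and the spread between them over the 18246 genes averaging 10 or more counts was a biological coefficient of variation of 0.0898. All 8 hippocampal neuron markers were detected, led by Camk2a at 1303 and 1180 TPM, Snap25 at 851 and 725 and Slc17a7 at 568 and 529. Choroid plexus markers stood apart between the libraries: all 10 were more than 2-fold higher in replicate 2. Of the 18246 genes averaging 10 or more counts, 2.88% were past 2-fold in either direction. Of the 10 markers 4 were detected in both libraries. Their summed levels were 28.6 TPM in replicate 1 and 1306 TPM in replicate 2, of which Ttr alone made 20.8 and 1237 TPM.

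The copies of each globin gene are nearly the same sequence, which limits how their reads can be told apart. In the mm10 genome with GENCODE release M21, Hba-a1 (ENSMUSG00000069919.7) lies at chr11:32283511-32284465 and Hba-a2 (ENSMUSG00000069917.7) at chr11:32296489-32297298, both on the plus strand and 12023 bases apart. Their protein-coding sequences of 426 bases, stop codon left out, differed at 1 base. The substitution was C381T, with the base of Hba-a1 first and positions counted from 1 at the first base of the start codon. The stretches around it are shown because this base is the whole coding difference between the copies; the capital marks it, and they lie at chr11:32284313-32284372 in Hba-a1 and chr11:32297130-32297189 in Hba-a2.
Hba-a1: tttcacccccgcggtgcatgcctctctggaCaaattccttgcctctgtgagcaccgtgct
Hba-a2: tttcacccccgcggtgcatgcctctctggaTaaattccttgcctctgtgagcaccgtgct

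Hbb-bs (ENSMUSG00000052305.6) lies at chr7:103826534-103828096 and Hbb-bt (ENSMUSG00000073940.3) at chr7:103812524-103813996, both on the minus strand and 12537 bases apart. Their coding sequences of 441 bases also differed at 1 base, C417T, with the base of Hbb-bs first. The stretches below run to the last base before the stop codon, with the differing base in capitals, at chr7:103826668-103826722 in Hbb-bs and chr7:103812659-103812713 in Hbb-bt, read on the minus strand.
Hbb-bs: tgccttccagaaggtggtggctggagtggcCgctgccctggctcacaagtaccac
Hbb-bt: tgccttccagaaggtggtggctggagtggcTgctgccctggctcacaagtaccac
Outside the coding part the pairs differ in kind. The 35 bases before the start codon of Hba-a2 were identical in Hba-a1, and so were the 77 bases after the last sense codon that the annotation gives Hba-a1. Between the beta copies the identical run was 14 bases before the start codon and 3 bases after the last sense codon, the stop codon itself. These sequences are those of the reference genome. The bases that the CAST/EiJ parent carries at these places, and counts per parental allele, were not analysed here.

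The effective transcript lengths of the first quantification correspond to reads of 100 bases, so every stretch of that length was looked up in all annotated transcripts. The main alpha transcripts shared 339 such windows. They were 56.5% of the 600 windows of Hba-a1-201 and 74.5% of the 455 windows of Hba-a2-201. The main beta transcripts shared 331 windows, 62.6% of the 529 of Hbb-bs-201 and 54.8% of the 604 of Hbb-bt-201. In every case the only other gene holding these windows was the neighbouring copy. Where the unique windows lie also differed. In the annotated transcripts, Hba-a1-201 had 161 of its 261 unique windows at its 5′ end, before the first shared one. The bases in which these 161 windows start are also present at the Hba-a2 locus, upstream of the annotated Hba-a2-201. Hba-a2-201 had 16 unique windows at its 3′ end and the other 100 across its single coding difference. The beta transcripts had unique windows at both ends, 39 and 159 in Hbb-bs-201 and 113 and 160 in Hbb-bt-201.

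**Figure D1:**
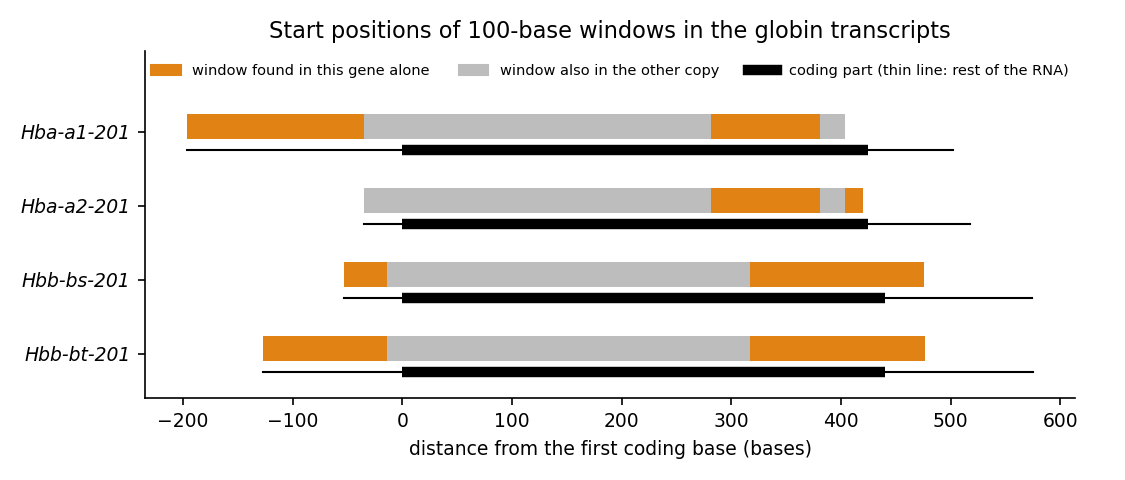
Start positions of every 100-base window in the 4 main globin transcripts, in bases from the first coding base. Orange windows are in no annotated transcript of another gene, and grey ones are also in a transcript of the other copy. The thick black line is the coding part. The grey windows number 339 in each alpha transcript and 331 in each beta transcript, and Hba-a1-201 has 161 orange windows at its 5′ end.

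Alas2 (ENSMUSG00000025270.13, chrX:150547375-150570638, plus strand) and Slc4a1 (ENSMUSG00000006574.15, chr11:102348824-102366203, minus strand) shared 0 windows with any other gene on their own strand. Alas2 lies wholly inside Apex2, a gene of a DNA repair nuclease on the opposite strand at chrX:150519519-150589868. Of 2403 exon bases of Alas2, 311 are also exon bases of Apex2. Whether counting used the strand is not given in the sources used here. Apex2, looked up after values were seen, had 329 and 339 expected counts in replicates 1 and 2 and Alas2 had 82 and 72, all whole, so these counts show no read divided between the genes. Whether a read was given to the wrong one of them was not tested.

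The deposited counts carried the mark of this sharing. An expected count is an estimate that divides a read among the transcripts it matches, so it need not be whole. Hba-a1 had 2131.22 and 1719.34 expected counts in replicates 1 and 2, and Hba-a2 had 1549.78 and 1465.66. Neither copy was at whole numbers, but their sum was, to within 0.005: 3681 reads in replicate 1 and 3185 in replicate 2. The beta copies did the same. Hbb-bs had 2186.49 and 1892.05 expected counts and Hbb-bt had 310.51 and 249.95, with sums of 2497 and 2142. Alas2 with 82 and 72 counts and Slc4a1 with 6 and 16 were whole in both libraries. Thus 4 of the 6 genes had counts that were not whole, against 17.3% of all genes that averaged at least 10 counts.

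How far the split between copies was settled differed between the pairs. The authors' software gave a standard deviation for each count from sampling the ways to assign the reads. It was 58.9 and 56.0 counts for either alpha copy in replicates 1 and 2, and 16.9 and 15.4 counts for either beta copy. Relative to the counts, that was 2.76% and 3.26% for Hba-a1, 3.80% and 3.82% for Hba-a2, 0.775% and 0.815% for Hbb-bs, and 5.46% and 6.17% for Hbb-bt. It was 0 for Alas2 and Slc4a1.

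The authors' second quantification, which also estimates counts per transcript, moved the alpha split far beyond those errors. It gave Hba-a1 3024 and 2612 counts in replicates 1 and 2, and Hba-a2 480.7 and 504.0. First over second, the count of Hba-a2 was 3.22 and 2.91 times in the 2 libraries, and that of Hba-a1 was 0.705 and 0.658. The alpha sums differed little: 3681 and 3185 reads by the first quantification, 3505 and 3116 by the second. The first quantification gave Hba-a1 57.9% and 54.0% of the alpha counts, and the second gave it 86.3% and 83.8%. For the beta copies the shift was smaller. The first quantification gave Hbb-bs 87.6% and 88.3% of the beta counts, and the second gave it 81.8% in both libraries.

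The count of Hba-a2 was the only one of the 6 more than 1.5-fold higher in the first quantification in both libraries, against 1.27% of 17616 genes. None of the 6 was more than 1.5-fold lower in both, against 4.75%, although Hba-a1 at 0.705 and 0.658 and Hbb-bt at 0.694 and 0.638 each had 1 library on either side of that limit. Alas2 and Slc4a1 counts were close to equal, at 1.01 times in both libraries and 0.857 and 1.00 times.

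**Figure D2:**
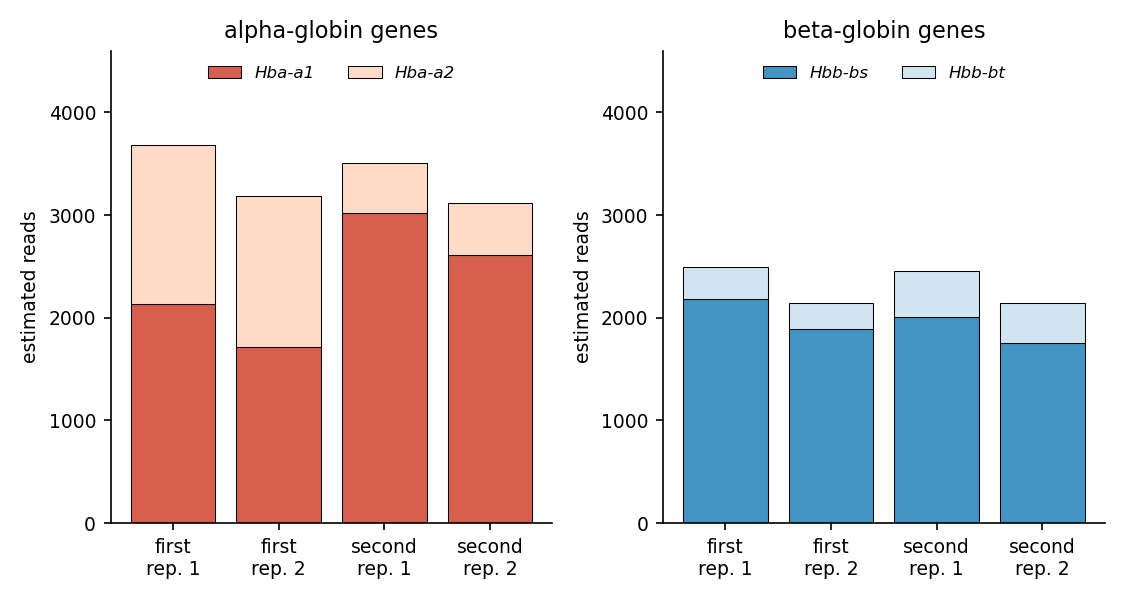
Stacked bars of the estimated reads of the alpha-globin copies and of the beta-globin copies, for each library by the first and by the second quantification. The alpha bars reach 3681, 3185, 3505 and 3116 reads from left to right, with the Hba-a1 share growing to 86.3% and 83.8% by the second quantification, while the beta bars keep Hbb-bs between 81.8% and 88.3%.

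Among the adult alpha-globins, Hba-a1 stood at 154 and 134 TPM in replicates 1 and 2 (mean 144 ± 14.4, SD, n = 2). Hba-a2 stood at 145 and 144 TPM (144 ± 0.714, n = 2). The ranges of the copies overlap, so neither was the higher. The authors' own bounds on TPM, which cover the assignment of reads, ran from 140 to 160 and 120 to 140 for Hba-a1, and from 129 to 155 and 128 to 153 for Hba-a2. In the second quantification Hba-a1 was at 495 and 437 TPM and Hba-a2 at 130 and 137 TPM, so there Hba-a1 was the higher in both libraries, 3.81 and 3.19 times. The summed counts do not rest on the split between the copies, and the summed level rests on it only through their lengths. That level was 299 and 277 TPM in the first quantification (288 ± 15.1, n = 2).

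Of the beta-globins, Hbb-bs was the highest of the 6 genes in the first quantification, at 176 and 161 TPM in replicates 1 and 2 (169 ± 10.3, n = 2). It ranked 415th of all 55536 genes by mean TPM and 348th of the 22028 protein-coding genes. Hbb-bt was at 21.9 and 18.5 TPM (20.2 ± 2.39, n = 2), rank 5273. The level of Hbb-bs was 8.04 and 8.73 times that of Hbb-bt, with ranges far apart. In the second quantification the ratio was 6.38 and 6.36, with Hbb-bs at 462 and 412 TPM and Hbb-bt at 72.4 and 64.8. By TPM, the beta copies were thus assigned unequal levels in both quantifications, and the alpha copies in both libraries of the second alone. By counts, the first also gave Hba-a1 the larger alpha share, at 57.9% and 54.0%. Both splits are set against copies that share 54.8% to 74.5% of their windows. How reads of the CAST/EiJ parent fell between the copies was not tested.

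In the order of levels from the first quantification, the lowest Hbb-bs value, 161 TPM, lay above the highest value of either alpha copy, 154 TPM. The authors' bounds on these 2 values overlap, at 149 to 165 TPM for Hbb-bs in replicate 2 and 140 to 160 TPM for Hba-a1 in replicate 1. The order did not hold in the second quantification, where Hba-a1 with 495 and 437 TPM and Hbb-bs with 462 and 412 TPM overlapped. Hbb-bt, Alas2 and Slc4a1 followed in that order in both quantifications, with no overlap between neighbours.

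**Figure D3:**
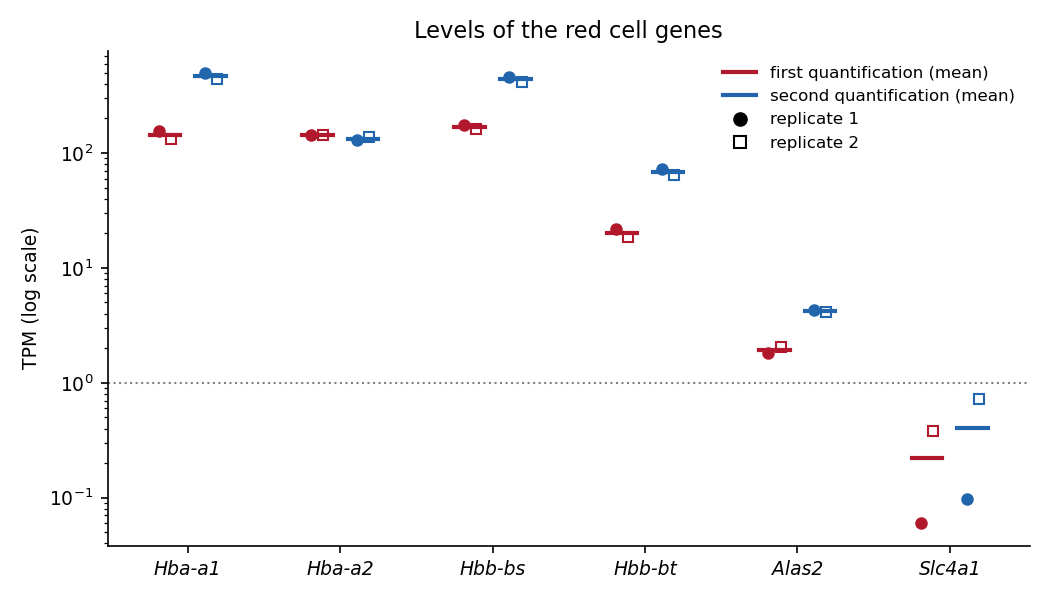
TPM of each of the 6 genes on a log scale, with red for the first quantification, blue for the second, circles and squares for replicates 1 and 2, short lines for means and a dotted line at 1 TPM. Hba-a1, Hba-a2 and Hbb-bs lie between 134 and 176 TPM in the first quantification, Hbb-bt near 20.2, Alas2 near 1.94 and Slc4a1 at 0.06 and 0.38.

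Summed over the 4 genes, globin RNA made up 496 and 457 TPM in replicates 1 and 2 (477 ± 27.9, n = 2). In reads it was 6178 and 5327 counts, or 0.0190% and 0.0177% of all counts. Alpha over beta was 1.51 and 1.54 by TPM (1.53 ± 0.0227, n = 2), and 1.47 and 1.49 by counts. The second quantification gave 1159 and 1051 TPM for the sum and 1.17 and 1.20 for alpha over beta by TPM, with 1.43 and 1.45 by counts. More alpha than beta RNA was therefore found in all of these, by margins that differ with the scale.

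The quantifications treat short RNAs differently. The second quantification subtracts a fragment length, about 339 and 325 bases for long RNAs in replicates 1 and 2, where the first subtracts 99 bases. For Hbb-bs-201, of 628 bases, the effective length was 529 bases by the first method, and 289 and 303 bases by the second. First over second, the TPM of 5 of the 6 genes was more than 1.5-fold lower in both libraries and that of none more than 1.5-fold higher, against 79.4% and 0.238% of genes. The median gene was at 0.584 and 0.571 times, Hba-a1 at 0.311 and 0.306, Hbb-bs at 0.380 and 0.391 and Hbb-bt at 0.302 and 0.285.

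Each globin gene was mostly 1 coding transcript, and in each pair the quantifications differed on how far. Hba-a1-201, of 699 bases, took 94.0% and 87.3% of its gene's TPM in the first quantification and the rest went to Hba-a1-202, a 494-base transcript with a retained intron, at 85.4 and 151 counts. In the second quantification Hba-a1-202 had 0 counts in both libraries. Hbb-bs-203, of 407 bases, had 1.99 and 3.97 counts by the first quantification, against 152 and 133 by the second, where it took 18.1% and 18.7% of the gene's TPM. Hbb-bs-202 had 0 and 13.7 counts by the first and 0 in both libraries by the second. Hba-a2-201, of 554 bases, took 100% of its gene in both, with Hba-a2-202 at 0 counts. Hbb-bt-201, of 703 bases, is the only transcript annotated for its gene, so its 100% was fixed in advance.

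Alas2 was more than 2 orders of magnitude below the summed globins. It had 82 counts in replicate 1, with an exact Poisson interval of 65.2 to 102, and 72 in replicate 2, with 56.3 to 90.7. These 95% intervals cover counting error only. Its level was 1.82 and 2.05 TPM (1.94 ± 0.163, n = 2), rank 13290 of all genes. There were 75.3 and 74.0 globin counts for each Alas2 count, and 273 and 223 times the TPM. The reads of Alas2 were divided among its transcripts in unlike ways. The 2037-base Alas2-201 took 98.6% of the gene's TPM in replicate 1 but 44.5% in replicate 2, where Alas2-202 took 33.7% and Alas2-204 21.8%. With 12.3 and 10.7 counts of assignment error on Alas2-201, and with Alas2-202 near 0 in both libraries by the second quantification, the split among transcripts is less certain than the gene's total.

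Alas1, the form of the same enzyme that all cells use, was far higher in this tissue, at 55.1 TPM in both libraries. It was looked up after values were seen, with the relatives of Slc4a1 given next.

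Slc4a1 had 6 counts in replicate 1, with an exact Poisson interval of 2.20 to 13.1, and 16 in replicate 2, with 9.15 to 26.0. The second quantification gave 7 and 16. Its deposited TPM, 0.06 and 0.38 (0.22 ± 0.226, n = 2), showed a wider gap than its counts. Of the 16 reads in replicate 2, 1.35 went to the 356-base Slc4a1-203, which then took 61.4% of the gene's TPM and shortened its averaged length to 1973 bases, against 4545 bases in replicate 1. The ratio of replicate 2 over replicate 1 was 6.33 by TPM and 2.66 by scaled counts, with an interval of 1.04 to 8.76. The authors' bounds on its TPM, 0.184 to 1.69 and 0.357 to 2.17, leave out the 0.06 listed for replicate 1. Other anion exchangers of the family were higher: Slc4a3 at 43.7 and 45.9 TPM and Slc4a2 at 10.2 and 19.3 TPM. Slc4a2, like Slc4a1, was higher in replicate 2, the library with more choroid plexus RNA, and the part of that tissue in either value was not tested.

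Between the libraries the summed globins differed little. With library sizes scaled by edgeR's TMM method, log2 of replicate 2 over replicate 1 was -0.13 for the alpha sum, with a counting interval of -0.20 to -0.07, and -0.15 for the beta sum, with -0.23 to -0.06. For all 4 genes together it was -0.14 (-0.19 to -0.09), 1.10-fold lower in replicate 2. By gene it was -0.24 for Hba-a1, -0.01 for Hba-a2, -0.13 for Hbb-bs, -0.24 for Hbb-bt and -0.11 for Alas2. The unequal values of the alpha copies, -0.24 and -0.01, belong with a split that is itself uncertain. The counting interval of the sum leaves out 0. The step itself is about as large as the general spread between the libraries, the coefficient of variation of 0.0898.

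Of the 6 genes, 5 were lower in replicate 2, against 50.4% of all genes averaging at least 10 counts and 55.5% of those averaging at least 100. The counting intervals of Hba-a2 (-0.11 to 0.10), Hbb-bt (-0.49 to 0.004) and Alas2 (-0.59 to 0.36) included 0. Those of Hba-a1 (-0.33 to -0.14) and Hbb-bs (-0.22 to -0.04) did not. Scaled by total counts, by deposited TPM or by the second quantification, 4 of these 5 were lower and 1 was higher. When the spike-in RNAs set the scale, 0 of these 5 were lower: they stood 0.03 to 0.26 higher in log2, and the globin sum was at 0.13. A change of scale moves the log2 ratio of every gene by about the same amount, so this count is no trait of these 5. The share of all genes lower on that scale was not computed. The direction therefore depends on the scaling. Slc4a1, at 1.41 (0.06 to 3.13), was the only one past 2-fold, against 2.88% of 18246 genes. Its mean count was 11. Among genes averaging at least 100 counts 0.466% were past 2-fold, and none of the 4 globin genes was.

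**Figure D4:**
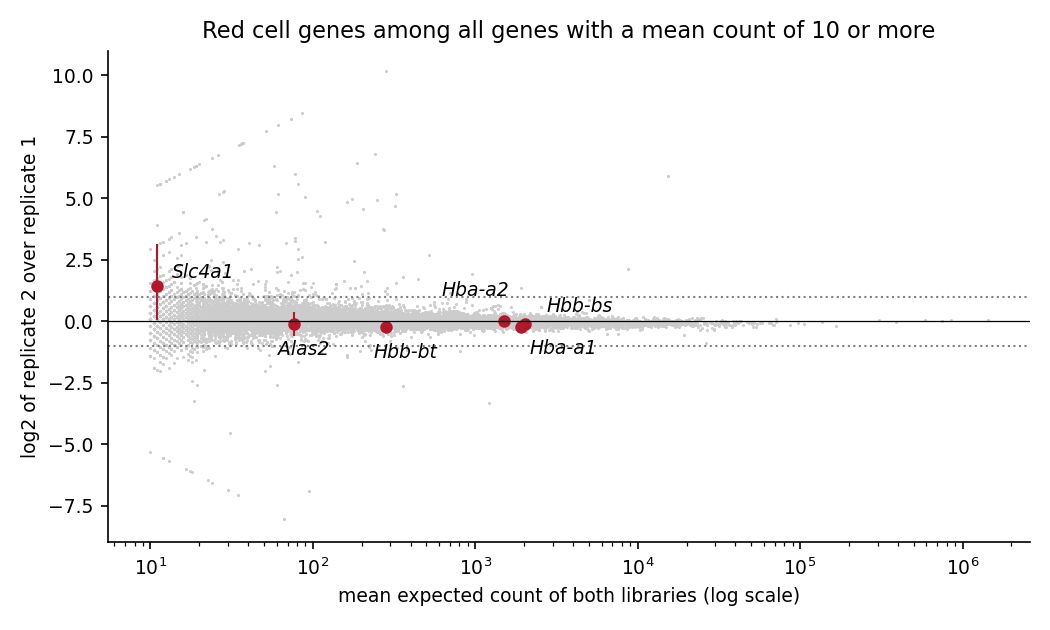
Log2 of replicate 2 over replicate 1 against the mean expected count of both libraries (log scale) for the 18246 genes that averaged at least 10 counts, with the 6 genes in red, their 95% counting intervals as bars and 2-fold as dotted lines. Slc4a1 at 1.41 lies past 2-fold with the widest bar, and the other 5 lie between -0.24 and -0.01.

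The promoters of 5 of the 6 genes were read from RefSeq (GRCm38.p6), from 250 bases before the start site to 50 from it on. They are shown because the globin pairs contrast: the alpha copies carry the same promoter and the beta copies do not. The capitals mark matches on either strand to 4 short motifs, TATAA (the TATA box), CCAAT (the CCAAT box), CACCC (bound by KLF factors) and GATAA (bound by GATA factors). They are Hba-a1 at chr11:32283422-32283721 (plus strand), Hbb-bs at chr7:103827879-103828178 and Hbb-bt at chr7:103813874-103814173 (both minus strand), and Alas2 at chrX:150547167-150547466 (plus strand).
Hba-a1: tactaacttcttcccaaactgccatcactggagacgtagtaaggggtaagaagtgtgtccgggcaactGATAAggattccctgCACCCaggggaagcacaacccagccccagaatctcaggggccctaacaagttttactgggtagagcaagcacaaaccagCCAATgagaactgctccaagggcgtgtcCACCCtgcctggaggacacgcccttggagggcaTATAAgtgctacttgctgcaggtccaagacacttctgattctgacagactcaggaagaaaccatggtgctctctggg
Hbb-bs: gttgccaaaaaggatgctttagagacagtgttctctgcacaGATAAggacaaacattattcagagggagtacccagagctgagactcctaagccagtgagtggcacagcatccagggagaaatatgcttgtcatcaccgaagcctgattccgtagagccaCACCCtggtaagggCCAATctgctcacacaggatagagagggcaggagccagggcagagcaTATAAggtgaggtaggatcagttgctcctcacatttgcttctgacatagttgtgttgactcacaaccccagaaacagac
Hbb-bt: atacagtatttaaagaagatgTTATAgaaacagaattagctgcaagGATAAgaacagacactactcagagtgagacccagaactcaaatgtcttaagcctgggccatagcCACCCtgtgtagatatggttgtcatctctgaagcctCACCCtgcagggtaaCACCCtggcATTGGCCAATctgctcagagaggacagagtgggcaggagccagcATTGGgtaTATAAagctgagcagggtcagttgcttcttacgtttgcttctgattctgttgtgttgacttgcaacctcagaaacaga
Alas2: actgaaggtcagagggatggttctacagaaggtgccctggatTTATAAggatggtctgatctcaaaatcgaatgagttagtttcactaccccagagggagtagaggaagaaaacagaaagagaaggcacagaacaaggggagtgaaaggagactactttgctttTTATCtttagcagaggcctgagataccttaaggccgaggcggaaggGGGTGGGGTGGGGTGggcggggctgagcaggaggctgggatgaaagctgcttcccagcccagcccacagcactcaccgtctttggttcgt
The Hba-a2 promoter, at chr11:32296242-32296541, matched that of Hba-a1 at 297 of 297 bases once shifted by 3. The beta promoters, shifted by 1, matched at 168 of 299 bases, or 56.2%. Each pair was compared at 1 shift without gaps, so an inserted or lost base puts what follows out of register. The 56.2% is therefore no measure of the identity of the aligned beta promoters, which share longer stretches than it shows. All 4 globin promoters held all 4 motifs, as did 1.51% of 32851 promoters of 300 bases. The alpha promoters are the same sequence and so make 1 case. The motifs were set by hand, so this share describes and tests nothing. Singly, TATAA was in 24.9% of them, CCAAT in 37.4%, CACCC in 57.5% and GATAA in 25.4%. The TATA box match nearest the start site began 27, 30, 29 and 28 bases before the start site of Hba-a1, Hba-a2, Hbb-bs and Hbb-bt, and the CCAAT box match on the gene's own strand 88, 91, 76 and 75 bases before it. Hbb-bt had further matches on the other strand, to the TATA box 229 bases upstream and to the CCAAT box 80 and 36 bases upstream. The Alas2 promoter held 3 of the motifs, all but the CCAAT box, and its TATA matches on the 2 strands overlapped each other 208 and 207 bases upstream. A match is a run of letters and no measured site.

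The start sites of the annotations differ in a way that bears on the read sharing. GENCODE begins Hba-a1-201 161 bases upstream of the RefSeq start site, so that the transcript takes in the TATAA and CCAAT matches and 1 CACCC match of the promoter shown. Hba-a2-201 begins 3 bases upstream of its own. These 161 bases equal the number of unique windows at the 5′ end of Hba-a1-201. The same bases lie upstream of Hba-a2-201, within the 297 that matched between the alpha promoters. Those windows are thus unique among annotated transcripts and not between the loci. Hbb-bt-201 begins 73 bases upstream of its RefSeq start site and Hbb-bs-201 exactly at it. How many reads began in those bases cannot be read from tables of counts per transcript.

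Lists of genes from the wider red cell programme were described by counts of detected members, with no test. Across protein-coding genes 57.6% were detected, and a count near that share is no trait of its list. Of 6 embryonic and theta globins, 0 were detected. Hba-x, Hbb-bh1 and Hbb-bh2 had 0 counts in both libraries, which allows up to 0.0925 and 0.0996 CPM, counts scaled to library size, in replicates 1 and 2, from 3 counts. Heme synthesis after the first step was complete, with 7 of 7 genes detected at a median level of 12.2 TPM. Its highest were Fech, which inserts iron to form heme, at 29.3 and 29.2 TPM, Urod at 28.4 and 30.2, and Cpox at 21.5 and 20.0. The carriers of heme and iron were all detected, 8 of 8. The highest by mean TPM were the metal transporter Slc11a2 at 24.6 and 28.2 TPM, Slc25a39 at 25.6 and 26.5 and the transferrin receptor Tfrc at 24.9 and 21.8. All cells make heme, so these genes are no mark of red cells.

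Of 16 genes of the red cell membrane and skeleton, 7 were detected, against 57.6% of protein-coding genes. The highest were Dmtn at 110 and 103 TPM, Add2 at 105 and 108 and Sptb at 50.9 and 48.1, skeleton proteins that neurons also make. Epb42, which binds band 3, and the Rh family genes Rhag and Rhd had 0 counts in both libraries by the first quantification. The second listed Epb42 at 22.9 and 24.3 counts and Rhag at 5.04 and 3.10, with Rhd at 0. Slc4a1, band 3 itself, had 6 and 16 counts by the first and 7 and 16 by the second, so which of Epb42 and Slc4a1 was higher depends on the quantification.

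Erythroid transcription factors were detected in 3 of 8 cases, against 57.6% of protein-coding genes. All 3 were factors with wider use: Ldb1 at 42.9 and 44.1 TPM, Zfpm1 at 14.8 and 14.1 and Lmo2 at 7.99 and 7.55. Gata1, the master regulator of red cell genes, had 0 and 1 counts, Klf1, the activator of adult beta-globin, had 1 and 5, and Nfe2 and Gfi1b had 0 in both. Tal1, a core erythroid factor, was higher than these at 44 and 41 counts, or 0.45 and 0.47 TPM, and at 1.14 and 0.755 TPM by the second quantification. Red cell enzymes and maturation genes were detected in 8 of 12 cases, against the same 57.6%. They were led by Prdx2 at 142 and 140 TPM, Bnip3l at 69.0 and 62.6 and Car2 at 60.0 and 55.7, which other cells also make. Car1, the red cell carbonic anhydrase, had 0 and 1 counts, and Hemgn had 0 in both by the first quantification and 0 and 2.10 by the second.

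**Figure D5:**
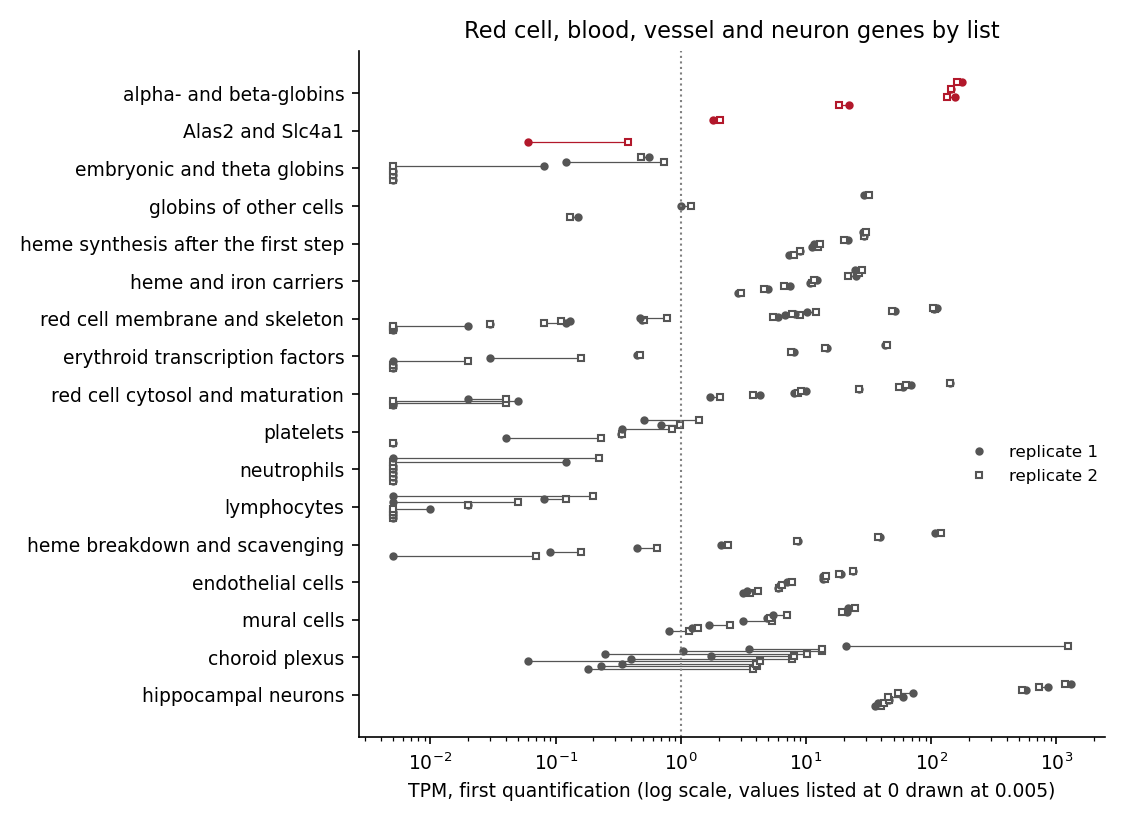
TPM of every listed gene in each library (log scale, values listed at 0 drawn at 0.005), grouped by list, with the 6 genes in red and the 1 TPM limit as a dotted line. Adult globins lie far above the embryonic globins and above every platelet, neutrophil and lymphocyte gene, none of which was detected in the first quantification shown.

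Markers of other blood cells were set beside the globins and beside the 57.6% of protein-coding genes that were detected. Of 6 platelet genes 0 were detected, the highest being Itga2b at 0.51 and 1.40 TPM, Pf4 at 0.69 and 0.98 and Gp1bb at 0.34 and 0.85. Gp1ba had 0 counts in both. Among platelet genes averaging at least 10 counts Gp1bb alone was past 2-fold, at 2.41-fold higher in replicate 2, on 7.82 and 18.8 counts. Ppbp, with 1 and 5 counts, was below that minimum. The 6 platelet genes together summed to 43.8 and 70.8 counts, a low but measured signal, where Alas2 alone had 82 and 72. The highest of them by counts, Itga2b, had 22 and 31, and the counts of Gp1bb were not whole. Of 7 neutrophil genes 0 were detected, with 3 and 2 counts in all, and S100a8, Ngp, Camp, Retnlg and Elane at 0 in both. Of 8 lymphocyte genes 0 were detected, with 4 and 11 counts in all, and Cd3e, Cd3d and Cd3g at 0. The second quantification differed for some of these. It gave Pf4 1.41 and 2.14 TPM in replicates 1 and 2, so 1 of the 6 platelet genes was detected there. Neutrophil and lymphocyte genes stayed at 0 detected. Cd3d had 27.9 and 10.3 counts, Cd3g 7 and 9 and the B cell gene Ms4a1 19.7 and 27.4, while Cd3e was at 0 there too. The adult globins stood at 6178 and 5327 counts.

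Of 9 endothelial genes 9 passed 1 TPM, against 57.6% of protein-coding genes, and their median was 7.42 TPM. The highest were Ly6c1 at 23.7 TPM in both libraries, the tight junction protein Cldn5 at 19.0 and 18.3 and the transporter Slco1a4 at 13.8 and 14.4. Their summed level was 95.9 and 98.3 TPM and their median log2 ratio 0.04, where that of the globin sum was -0.14. Of 8 mural cell genes, 7 were detected. Of 7 genes of heme breakdown and scavenging, 4 were detected, near the share of protein-coding genes. They were Lrp1, the receptor for hemopexin-bound heme, at 107 and 119 TPM, Hmox2 at 39.2 and 37.3, Blvra at 8.60 and 8.40, and the inducible heme oxygenase Hmox1 at 2.08 and 2.39. Globins of other cells were present too, with cytoglobin (Cygb) at 28.9 and 32.1 TPM and neuroglobin (Ngb) at 1.01 and 1.20, while myoglobin (Mb) was at 0.15 and 0.13.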

How the data were processed

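Gene and transcript tables of both libraries were used, all on mm10 with GENCODE M21, per the notes deposited beside them. The authors deposited expected counts and TPM per gene and per transcript, and for each transcript its percent of the TPM of its gene, per the file headers. A second deposited table gives estimated counts and TPM per transcript, which were summed here per gene. Column names are those of RSEM and kallisto, but software, versions and use of strand were not given in the sources used here. All 55536 gene identifiers matched the annotation. The 26248 entries with numbers for names took 1.23e-05% and 1.62e-05% of counts. These entries and 96 spike-ins were left out of the library sizes for TMM scaling. They were kept in the library totals of expected counts, and so in the first quantification's percents of all counts and the CPM limits.

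The members and gene lists were chosen with earlier results of these data known. The text names all 6 genes, the 3 highest of each other list discussed gene by gene, genes past 2-fold that averaged at least 10 counts, and genes at 0 counts, with a few others named for their role after their values were seen. Choroid plexus and mural cell lists are given as counts and summary levels, with Ttr alone named. Some listed genes are not reported here by name. Of the 124 other listed genes 123 matched by symbol, and 67 were detected at 1 TPM or more, against 57.6% of protein-coding genes.

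Expected counts were rounded and scaled with edgeR 4.0.16 (TMM, R 4.3.3). Ratios added a prior count of 0.5 scaled to library size, and a gene was called apart beyond 2-fold. With 1 library a side no p-value was made. Intervals are exact 95% Poisson or binomial ones. Scaling, thresholds, prior count and quantification were varied. The step of replicate ratios was tested on simulated counts, for genes averaging at least 100. Read sharing, the copy splits and counts as low as those of Slc4a1 were not simulated. Figures were drawn with matplotlib 3.10.9.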

Additional observations from a re-analysis of the deposited data

How the results depend on the processing

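Leaving out each replicate gave 457 to 496 TPM for the globin sum, 1.51 to 1.54 for alpha over beta, 48.2% to 51.6% of alpha TPM for Hba-a1, 88.9% to 89.7% of beta TPM for Hbb-bs, 67 to 75 other listed genes detected, and 1 to 3 members past 1.5-fold between quantifications. By the second quantification the globin sum was 1105 TPM, alpha over beta 1.19, the Hba-a1 share 77.7% and the Hbb-bs share 86.4%. By counts, alpha over beta was 1.48, Hba-a1 took 55.9% and Hbb-bs 87.9%. By the authors' posterior mean counts, a setting chosen after seeing the data, these were 1.48, 55.7% and 87.9%. Spike-in scaling put the globin log2 ratio at 0.13 in place of -0.14.

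The 525 genes past 2-fold became 307 with a prior count of 5, 1541 at 1.5-fold, 59 when a mean of 100 counts was required and 5797 with no filter. Slc4a1, the 1 member past 2-fold, was lost with a prior count of 5 (0 members) and with the mean count of 100 (0 members). Between quantifications, 5 members were past 1.5-fold by TPM in place of 1 by counts. The cause of these moves was not tested, apart from the smaller sets of genes that stricter limits leave.

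Depth limits Slc4a1 most, since 6 and 16 counts leave an interval of 1.04 to 8.76 on its ratio, and the shared reads limit each globin copy more than the globin sums. No paired analysis was possible because there was 1 group.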

Other observations

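The theta globins, relatives of alpha-globin, also shared reads. Hbq1a had 6.65 and 5.41 expected counts in replicates 1 and 2, and Hbq1b had 1.35 and 7.59. Their sums were whole, at 8 and 13 counts. Hbb-y, an embryonic beta-globin, had 1 and 0 counts.

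Mural cell genes had a median log2 ratio of 0.33 for replicate 2 over replicate 1, where the endothelial median was 0.04.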
